A study of Homo sapiens with 20 samples.

Results

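The genes described here are 46 genes of DNA replication and mitosis, 24 that act at the start of S phase (G1/S) and 22 that act in G2 and mitosis. They were taken by name, and all 46 were found among the 54261 features of the RNA-seq count table. All 46 also passed the filter on low counts that left 15629 genes for testing. Their transcripts were counted in TPC-1, an established line from a human papillary thyroid carcinoma. The cells had been kept for 48 h with PMN-MDSCs, polymorphonuclear suppressor cells of the myeloid lineage, neutrophil-like myeloid cells that dampen T cell responses, or had been left untreated. RNA-seq covered 6 cocultures and 4 controls, and miRNA-seq, which counted mature miRNAs, as many of each. Every group is a single cell line, and the sources used here do not say where the PMN-MDSCs came from, whether a membrane kept the cells apart or whether the PMN-MDSCs were removed before lysis. Nothing in the labels says that libraries of a group were separate cultures, so p-values rest on a spread between libraries that may be technical.

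A cell that leaves G1 loads a ring of MCM proteins onto its replication origins, turns the ring into a moving helicase, and copies its DNA behind a sliding clamp. Cyclin E, with its kinase partner, and the E2F factors switch on the genes for this step. Later in the cycle FOXM1 and the B-MYB complex switch on a second wave of genes for condensing chromosomes, building the spindle and leaving mitosis. The DREAM complex of pocket proteins holds both sets down in resting cells. These genes are therefore widely used as readouts of how large a share of a culture is cycling. In bulk libraries, fewer cells in a cycle stage and less RNA per cell cannot be told apart.

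RNA-seq libraries held 40237801 to 48197608 counts and miRNA-seq libraries 3971608 to 5895539. Thyroid and epithelial markers were present only in part. PAX8, a thyroid transcription factor, was at a mean of 507.5 CPM (read counts relative to the library's TMM-scaled size) in controls, but TSHR, SLC5A5 and NKX2-1 were at 0 there. FOXE1 and TG, from the same list, were at means of 10.2 and 0.790 CPM in controls. KRT18 and KRT8, keratins of simple epithelia, were at 349.8 and 240.1 CPM in controls, and CDH1, the epithelial cadherin, was at 0 there. Coculture libraries 1 and 2 stood apart from the other 8 over all tested genes, at -66.1 and -60.6 on a first principal component that held 39.3% of the variance, so counts, medians and fold changes are also given without them. That split was chosen after seeing the data, and the labels give no batch or date to which it could be tied.

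No member differed between coculture and control at an adjusted p under 0.05 (edgeR quasi-likelihood test, Benjamini-Hochberg over all tested genes). This was 0 of 24 G1/S genes and 0 of 22 mitotic genes, in a comparison where 1.32% of all tested genes were called, 178 higher and 29 lower. DESeq2 and limma-voom also called 0 of the 46. The fold changes were small and mostly negative, 42 below 0 and 4 above. Their median log2 fold change was -0.10 in the G1/S genes and -0.099 in the mitotic genes, against 0.0082 over all tested genes. At an unadjusted p under 0.05, 4 G1/S genes (TYMS, CCNE1, PCNA and UHRF1) were lower and 0 members were higher, where 3.58% of all genes were lower and 6.07% higher by the same measure. DESeq2 and limma-voom each gave 6 of 46 members at that level, in either direction, where they gave 11.1% and 9.46% of all genes. The edgeR count ran from 1 to 6 among the G1/S genes when 1 library was left out, and it was 1 without coculture 1 or without control 2, 3 or 4. It was 7 with library totals in place of TMM, where 9.66% of all genes reached that level. It was 6 without coculture 5 or without coculture 6, 3 without control 1, and 2 without coculture 2, 3 or 4. Without coculture 1 and 2 together it was 2, where 13.7% of all genes reached that level. A share over all genes is not given for the fits with 1 library left out, so those counts stand without a background.

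For most members the fitted intervals were narrow, but they rest on a spread between libraries that may be technical. They also used a single fitted variation for both groups, while the SD of log2 CPM was larger in coculture for 34 of 46 members. The 95% interval of the fold change lay within 1.5-fold in either direction for 39 of 46 members, and within 2-fold for 44. The exceptions to the 1.5-fold bound were MCM10, GINS1, CCNE1, E2F2, CLSPN, CENPE and CENPF, and E2F2 and CENPE were the exceptions to the 2-fold bound.

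**Figure D1:**
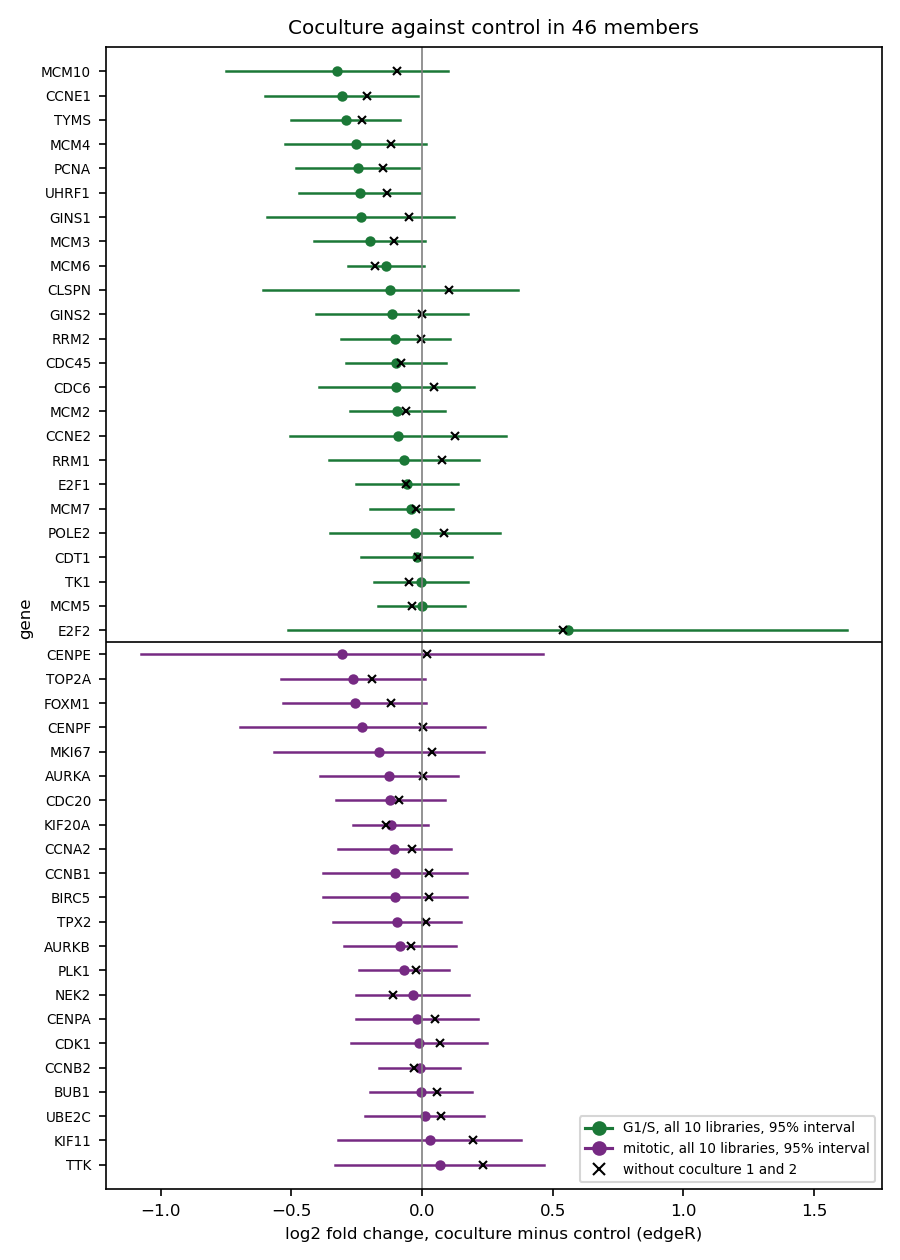
Log2 fold change of coculture minus control for the 46 members, with the edgeR estimate from all 10 libraries (circle) and its 95% interval (line), G1/S genes in green and mitotic genes in purple. Crosses give the estimate without coculture 1 and 2. Most circles lie just left of 0 (42 of 46), and 20 of the crosses lie above 0.

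Without coculture 1 and 2 the medians of both classes were nearer to 0. The median log2 fold change became -0.049 in the G1/S genes and 0.0090 in the mitotic genes, and 20 of the 46 members were then above 0. The number of members called stayed at 0, while over all genes 210 were called higher and 112 lower in that fit. In it, 2 of 46 members had an unadjusted p under 0.05, against 13.7% of all genes. MCM6 was at -0.18 (edgeR adjusted p = 0.215) and TYMS at -0.23 (edgeR adjusted p = 0.228). The log2 fold changes of PCNA, CCNE1, UHRF1, TOP2A and FOXM1 became -0.15, -0.21, -0.13, -0.19 and -0.12, and that of KIF20A -0.14. Those of CENPE, CENPF, CLSPN and CCNE2, which were negative over all libraries, became 0.020, 0.0048, 0.10 and 0.12. E2F2, TTK, KIF11 and UBE2C, the members above 0 over all libraries, were then at 0.54, 0.24, 0.20 and 0.073.

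The promoters of the 2 classes differ in the short words they hold, and members with such words are shown here because the classes are known to follow different factors. RefSeq promoter windows (GRCh38.p14, 250 bases before to 50 after a start site) matched 37 of the 46 genes, 21 G1/S and 16 mitotic. An E2F word (TTTCCCGC, TTTCGCGC, TTTGCCGC or TTTGGCGC, either strand) stood in 15 of 21 G1/S genes and in 2 of 16 mitotic genes, CDK1 and CENPA. It stood in 3.99% of all 27305 genes with a window and in 3.31% of all windows. In 4 G1/S genes the capitals mark E2F words in either orientation, which may overlap.
MCM6: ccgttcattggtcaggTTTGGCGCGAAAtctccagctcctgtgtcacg
E2F1: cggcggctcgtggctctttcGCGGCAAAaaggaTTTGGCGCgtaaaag
CDT1: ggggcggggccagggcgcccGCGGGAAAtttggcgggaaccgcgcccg
TYMS: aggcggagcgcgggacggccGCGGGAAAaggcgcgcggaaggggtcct
These stretches lie at chr2:135876502-135876549 (minus strand), chr20:33686391-33686438 (minus), chr16:88803734-88803781 (plus) and chr18:657594-657641 (plus). The MCM6 window held 4 E2F words in all, counted with overlap, and the CCNE1 window held none.

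A CHR word (TTTGAA or TTCGAA, either strand), known as the element bound by the DREAM and MuvB complexes, showed the reverse split. It stood in 10 of 16 mitotic genes and in 2 of 21 G1/S genes, MCM6 and RRM1, against 19.5% of all genes and 16.4% of all windows. Capitals mark it in 4 mitotic genes, and in PLK1, MKI67 and CCNB2 the last copy before the start site ended 23 bases from it.
PLK1: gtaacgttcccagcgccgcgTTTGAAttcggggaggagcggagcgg
MKI67: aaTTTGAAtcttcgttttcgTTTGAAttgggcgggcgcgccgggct
CCNB2: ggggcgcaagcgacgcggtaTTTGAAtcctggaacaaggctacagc
CDC20: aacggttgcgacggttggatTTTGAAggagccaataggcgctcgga
They lie at chr16:23678840-23678885 (plus), chr10:128126427-128126472 (minus), chr15:59105097-59105142 (plus) and chr1:43358896-43358941 (plus). CCAAT boxes stood in 15 of 21 G1/S and 15 of 16 mitotic genes, against 39.7% of all genes and 34.6% of windows. These matches describe letters in a window and show no binding.

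Among the genes of origin licensing and helicase activation, 12 were measured and all 12 fold changes were below 0. MCM2, a subunit of the helicase ring, was at 202 to 260.2 CPM in coculture (median 215) and at 219, 246, 246 and 239.7 in controls 1 to 4. The ranges overlapped, and its log2 fold change was -0.094 ± 0.084 (SE, as for every fold change; edgeR adjusted p = 0.766). MCM7, another ring subunit, was at 212 to 238 CPM in coculture (median 225) against 209.8, 227, 241 and 253, the lowest and the highest of the 10 libraries both being controls. Its log2 fold change was -0.040 ± 0.074 (edgeR adjusted p = 0.898). MCM5 and CDT1, which helps to load the ring, had group means that differed by less than either group's SD, 206 ± 12.3 against 206 ± 15.2 CPM and 82.6 ± 5.74 against 83.8 ± 11.4 (SD, n = 6 and 4, as for every pair of means).

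The other ring subunits were a little lower in coculture. MCM3 had means of 196 ± 24.9 and 226 ± 10.2 CPM, MCM4 of 536 ± 94.1 and 639 ± 27.6, and MCM6 of 113 ± 5.72 and 125 ± 1.99, none of them called (edgeR adjusted p = 0.546 for each). The lowest MCM4 values were in coculture 1 and 2, at 412 and 425 CPM, with 553 to 629.9 in coculture 3 to 6. MCM6 had another order, since coculture 1 and 2 held 113 and 122 CPM and the lowest library was coculture 5 at 105. MCM10, which helps to start the helicase, was at 26.6 and 24.2 CPM in coculture 1 and 2, 46.1 to 49.1 in coculture 3 to 6 and 48.0 to 53.8 in controls. GINS1, a helicase subunit, was at 55.6 and 53.3 CPM in those libraries and 84.6 to 93.0 in coculture 3 to 6, and its partner GINS2 at 30.7 and 35.8 against 42.5 to 48.0. CDC6, which loads the ring, was at 75.7 and 81.2 CPM there and at 111 to 116 in coculture 3 to 6, and CDC45, a helicase cofactor, was at 48.3 CPM in coculture 1 and 54.3 to 57.3 in the other 5.

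At the fork, TYMS, which makes thymidylate, had the smallest p of all members. It was at 212 to 278 CPM in coculture (median 245) and at 267, 274, 324 and 329 in controls 1 to 4. The highest coculture library, number 3, lay above controls 1 and 2, so the groups overlapped. Its log2 fold change was -0.29 ± 0.096 (edgeR unadjusted p = 0.00973, adjusted p = 0.265), with means of 244 ± 23.9 and 298 ± 32.5 CPM. The count table gives its position as chromosome 18, 657604 to 673499, plus strand. PCNA, the sliding clamp, was at 171 to 238 CPM in coculture (median 229) and at 222, 246, 268 and 282 in controls. Coculture 1 and 2 were its lowest libraries, and coculture 3 to 6 spanned 226 to 238, between controls 1 and 2. Its log2 fold change was -0.25 ± 0.11 (edgeR adjusted p = 0.484). CLSPN, a mediator of the fork checkpoint, spanned 46.2 to 107.8 CPM within coculture alone (median 70.7) and 65.5, 77.6, 84.4 and 92.7 in controls. Coculture libraries were both its lowest (1 and 2) and its highest (3 and 4), and its log2 fold change was -0.12 ± 0.22 (edgeR adjusted p = 0.900).

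The nucleotide enzymes fell into 2 patterns. RRM1, the large subunit of ribonucleotide reductase, was at 171 and 187 CPM in coculture 1 and 2 and 236 to 279 in coculture 3 to 6, with controls between 239 and 251. RRM2, the small subunit, was at 281 and 300.6 against 364 to 380.05, with controls between 363 and 377. TK1, the thymidine kinase of the salvage route, showed no such gap, at 139 and 143 CPM in coculture 1 and 2 and 122 to 141 in coculture 3 to 6. POLE2, a subunit of the leading-strand polymerase, was at 11.8 ± 2.27 CPM in coculture and 12.1 ± 1.10 in controls.

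Among the G1/S regulators, CCNE1, one of the E cyclins, was at 9.79 to 14.4 CPM in coculture (median 12.2) and at 12.8, 14.3, 17.1 and 16.3 in controls. The groups overlapped, with a log2 fold change of -0.31 ± 0.14 (edgeR unadjusted p = 0.0412, adjusted p = 0.483). CCNE2, the other E cyclin, was at 17.9 to 36.1 CPM in coculture (median 32.9) and at 29.3, 32.9, 30.3 and 32.3 in controls. Its 2 lowest libraries were coculture 1 and 2 and its 2 highest were coculture 3 and 4, so that the log2 fold change of -0.091 ± 0.19 (edgeR adjusted p = 0.911) averaged over libraries on both sides of the controls. UHRF1, which brings DNA methylation to new strands, was at 105 to 151 CPM in coculture (median 129) and at 145, 153, 156 and 145 in controls. All coculture libraries but number 5 lay below every control, number 5 lay above 2 of them, and the log2 fold change was -0.24 ± 0.11 (edgeR unadjusted p = 0.0451, adjusted p = 0.499).

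E2F1, the activating factor of the G1/S wave, was at 59.8 to 74.998 CPM in coculture (median 65.7) and at 61.1, 72.0, 69.4 and 74.5 in controls. Coculture 1 and 2, at 65.2 and 66.2, lay in the middle of its range, and its log2 fold change was -0.058 ± 0.090 (edgeR adjusted p = 0.878). E2F2, a related factor, was barely counted, with 2 to 17 counts a library. It was at 0.152 to 0.409 CPM in coculture (median 0.269) and at 0.299, 0.0989, 0.291 and 0.0452 in controls. The log2 fold change of 0.56 ± 0.49 (edgeR adjusted p = 0.763) carries little information at this depth.

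**Figure D2:**
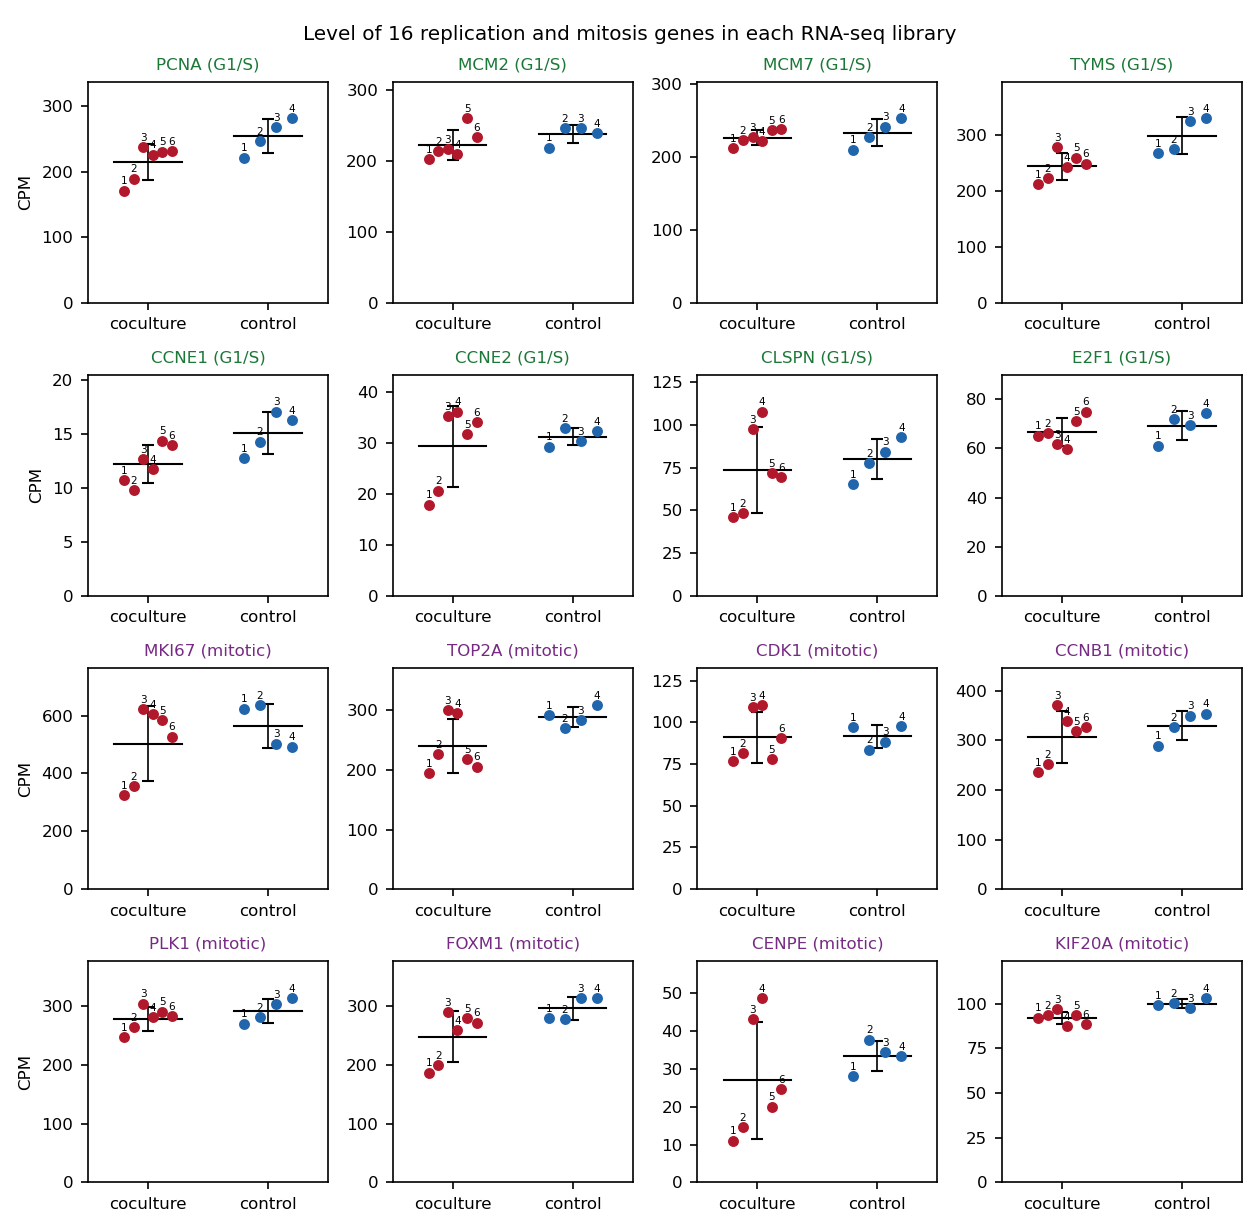
Level in CPM (vertical axis from 0) of 16 members in the 6 coculture (red) and 4 control (blue) RNA-seq libraries, each point numbered by its library, with the group mean (horizontal line) and SD (error bar). In CCNE2, CLSPN, MKI67 and CENPE the coculture points 1 and 2 lie far below points 3 and 4, while in E2F1, MCM7 and KIF20A they lie among the others.

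Among the mitotic genes, MKI67, the Ki-67 protein that coats mitotic chromosomes and marks cycling cells, had means of 503 ± 130.2 CPM in coculture (n = 6) and 564 ± 76.9 in controls (n = 4). Coculture libraries spanned 326 to 622 CPM (median 555), and controls 1 to 4 were at 624, 637, 503 and 492. Coculture 1 and 2, at 326 and 356, were the lowest, whereas coculture 3, 4, 5 and 6 all lay above controls 3 and 4. The log2 fold change was -0.17 ± 0.18 (edgeR adjusted p = 0.815), and 0.038 without coculture 1 and 2. TOP2A, the topoisomerase that untangles sister chromatids, was at 195 to 300.1 CPM in coculture (median 222) and at 292, 269.8, 283 and 309 in controls. Here coculture 5 and 6, at 218 and 205, were low along with coculture 1 and 2, and coculture 3 and 4 lay among the controls. TOP2A had the smallest p of the mitotic genes, with a log2 fold change of -0.26 ± 0.13 (edgeR unadjusted p = 0.0590, adjusted p = 0.543).

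Among cyclins, kinases and FOXM1, all 8 fold changes were below 0 and none was called. CDK1, the kinase that drives entry into mitosis, was at 76.8 to 110.6 CPM in coculture (median 86.0) and at 97.1, 83.7, 88.5 and 97.9 in controls. Coculture 3 and 4 were its highest libraries and coculture 1 its lowest, and the log2 fold change was -0.012 ± 0.12 (edgeR adjusted p = 0.983). CCNB1, the cyclin B1 partner of CDK1, was at 235 to 371 CPM in coculture (median 323) and at 289, 326, 349.9 and 354 in controls. Only coculture 1 and 2 lay below every control, and the log2 fold change was -0.10 ± 0.13 (edgeR adjusted p = 0.833). CCNB2, the second B cyclin, was the steadiest member, at 60.6 to 67.0 CPM in coculture and 60.3 to 66.5 in controls, a 1.11-fold range over 10 libraries. PLK1, the polo-like kinase of mitotic entry and exit, was at 247 to 304 CPM in coculture (median 282) and at 269.9, 281, 303 and 313 in controls. The groups overlapped apart from coculture 1 and 2, and the log2 fold change was -0.068 ± 0.079 (edgeR adjusted p = 0.819).

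FOXM1, the factor that switches on G2 and mitosis genes, was at 187 to 289 CPM in coculture (median 265) and at 279, 278, 313 and 313 in controls. Coculture 1, 2, 4 and 6 lay below all controls, and the log2 fold change was -0.26 ± 0.13 (edgeR adjusted p = 0.546). AURKA, a kinase of the spindle poles, was at 122 and 131 CPM in coculture 1 and 2 and 168 to 185 in coculture 3 to 6. CCNA2, the A cyclin of S phase and G2, was at 92.6 ± 10.8 CPM in coculture and 99.7 ± 8.71 in controls. NEK2, a centrosome kinase, went the other way in coculture 1 and 2, at 45.9 and 48.8 CPM, with its lowest value, 35.3, in coculture 5.

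Among the groups by role, the mean level of the kinetochore and checkpoint genes varied most between the 10 libraries (SD 0.268 in log2 CPM). The chromosome structure genes, MKI67 and TOP2A, were close at 0.267. Gene by gene, the median SD within coculture was larger in that group, 0.34 against 0.26 in the kinetochore and checkpoint genes. CENPE, the kinesin that carries chromosomes along microtubules, was at 11.0 CPM in coculture 1, 14.6 in coculture 2, 43.1 in coculture 3, 48.7 in coculture 4, 20.1 in coculture 5 and 24.7 in coculture 6 (median 22.4). Controls 1 to 4 were at 28.2, 37.8, 34.4 and 33.4, so that 4 coculture libraries lay below every control and 2 above every control. The log2 fold change of -0.31 ± 0.35 (edgeR adjusted p = 0.819) therefore summarised a 4.42-fold range within coculture. CENPF, a large kinetochore protein, was at 96.0 to 226 CPM in coculture (median 163) and at 189, 199.5, 183 and 197 in controls. It had the same order, with coculture 1 and 2 lowest and coculture 3 and 4 highest, and a log2 fold change of -0.23 ± 0.22 (edgeR adjusted p = 0.778).

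The other kinetochore and checkpoint genes were spread less widely. TTK, the kinase MPS1 of the spindle checkpoint, was at 18.8 to 43.3 CPM in coculture and 28.4 to 31.2 in controls, with its highest values in coculture 3 and 4. BUB1, a checkpoint kinase, had means of 108 ± 12.1 and 108 ± 2.47 CPM, and AURKB, the kinase of the chromosomal passenger complex, of 103 ± 7.61 and 109 ± 15.4. BIRC5 (survivin), its partner, was at 113 and 118 CPM in coculture 1 and 2 and 147 to 178 in coculture 3 to 6, and CENPA, the centromeric histone, had means of 27.5 ± 2.87 and 27.8 ± 3.03.

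Among spindle and anaphase genes, KIF20A, a kinesin of cytokinesis, was the 1 member of 46 whose groups did not overlap. Coculture libraries held 87.6 to 97.0 CPM (median 92.8) and controls 99.3, 100.1, 97.6 and 103, and 1.17% of all tested genes lay fully below the controls in this way and 2.45% fully above. The gap was small, with a log2 fold change of -0.12 ± 0.066 (edgeR adjusted p = 0.600). Its position in the table is chromosome 5, 138178728 to 138187715, plus strand. CDC20, the activator of the anaphase-promoting complex, was at 309.7 to 363 CPM in coculture (median 347) and at 321, 329, 412 and 429 in controls. Controls 3 and 4 lay above all coculture libraries and controls 1 and 2 among them, with a log2 fold change of -0.12 ± 0.096 (edgeR adjusted p = 0.728). UBE2C, the ubiquitin enzyme of the same complex, had means of 127 ± 12.6 and 126 ± 16.4 CPM. KIF11, the motor that pushes spindle poles apart, was at 65.4 and 71.9 CPM in coculture 1 and 2 and 88.5 to 119.7 in coculture 3 to 6, and TPX2, a spindle assembly factor, at 205 and 234 against 269 to 322.

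On a scale that takes transcript length into account, CDC20 was the most abundant member at 212 CPM per kb. PCNA (170.2), TYMS (168), CCNB1 (146) and UBE2C (143 CPM per kb) came next over all 10 libraries. Their order differed between the groups, since TYMS stood at 188.5 and PCNA at 187.8 CPM per kb in controls, and UBE2C at 143.5 and CCNB1 at 141.6 in coculture. At the other end, E2F2 was the least abundant at 0.0452 CPM per kb. CDC20 stood at the 98.1 percentile of all tested genes on this scale and CENPE at the 44.7 percentile.

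For the mean level of each class, the SD over the 10 libraries was larger than the difference between the groups. It was 0.15 in log2 CPM for the G1/S and 0.18 for the mitotic genes, where coculture minus control was -0.12 in each. Within coculture the SDs were 0.17 and 0.22, and within controls, where they were smaller than that difference, 0.071 and 0.064. Single members could differ, since TYMS had a log2 fold change of -0.29 and an SD of 0.21 over the 10 libraries. For 26 of the 46 genes coculture 1 and 2 were the 2 lowest of the 10 libraries, 14 of 24 G1/S and 12 of 22 mitotic genes. Over all tested genes this was so for 22.3%, and among the 7386 tested genes in the members' range of counts for 2376. Coculture 1 and 2 were the 2 highest libraries for 0 members, for 22.4% of all tested genes and for 1553 of those 7386. The median member lay 0.36 lower in them than in the other 8 libraries on the log2 scale, against 0.0087 higher over all tested genes and 0.073 lower over the 7386 tested genes in the members' range of counts.

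**Figure D3:**
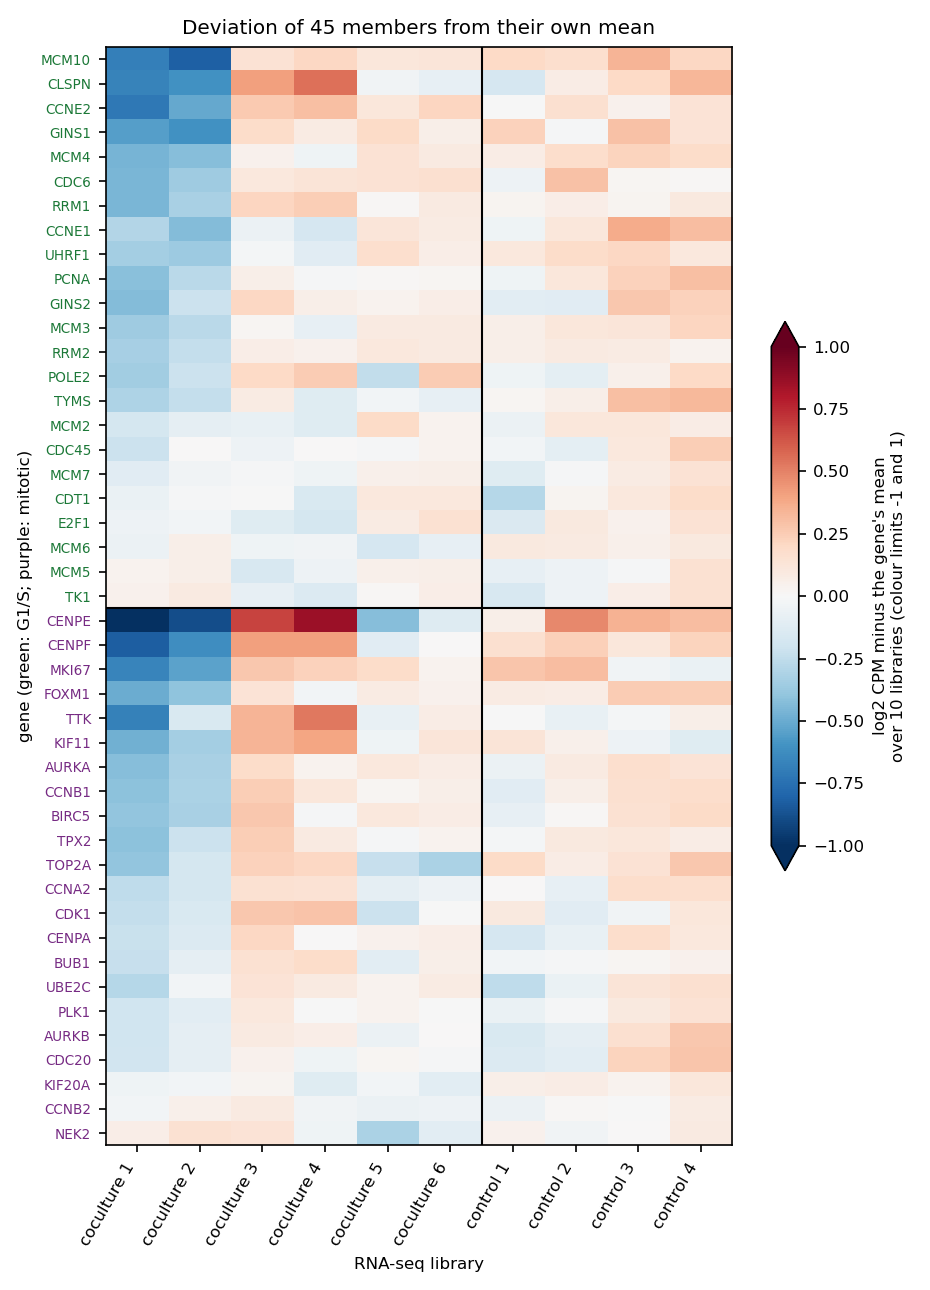
Deviation of log2 CPM from each gene's mean over the 10 RNA-seq libraries, for 45 members in rows (E2F2, with 2 to 17 counts a library, is left out) and libraries in columns, with colours from blue (lower) to red (higher). G1/S genes stand above the black line and mitotic genes under it, each sorted by their level in coculture 1 and 2. These 2 columns are blue for most genes, and coculture 3 and 4 are red for many mitotic genes.

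The members did not share this gap evenly. It was largest in CENPE, at -1.36 on the log2 scale, MCM10 at -0.93, CENPF at -0.90, CLSPN at -0.80, CCNE2 at -0.77, MKI67 at -0.75 and GINS1 at -0.72. At the other end NEK2 (0.14), TK1 (0.087), MCM5 (0.057) and CCNB2 (0.015) lay slightly higher in coculture 1 and 2, and E2F2, with few counts, at 0.38. Between the genes of a pair the gap could differ. CCNB1 exceeded CCNB2 by 1.93 and 1.95 on the log2 CPM scale in coculture 1 and 2 and by 2.26 to 2.48 in the other 8 libraries. CENPA exceeded CENPE by 1.09 and 0.77 in coculture 1 and 2 and by 0.50 and 0.21 in coculture 5 and 6. In coculture 3 and 4 it was lower by 0.44 and 0.83, and in controls the difference was -0.53 to -0.15. These differences are not scaled by length and compare libraries, not genes.

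Both classes were lowest in coculture 1 and 2, and their mean levels took a different order in the other coculture libraries, a difference that was not tested. The G1/S genes deviated from their own means by an average log2 CPM of -0.30 in coculture 1 and -0.23 in coculture 2, and by 0.036 to 0.10 in coculture 3 to 6. Without E2F2 these values were -0.32, -0.25 and 0.027 to 0.073. The mitotic genes were at -0.38 and -0.23 in coculture 1 and 2, at 0.22 and 0.15 in coculture 3 and 4, and at -0.051 and -0.0011 in coculture 5 and 6. Controls ranged from -0.0020 to 0.15 for the G1/S genes and from -0.0015 to 0.14 for the mitotic genes. The order did not separate replication from mitosis genes throughout. In coculture 3, 4, 5 and 6 the G1/S members of fork and nucleotide supply were at 0.14, 0.12, -0.024 and 0.052. A list of 48 other replication genes was at 0.13, 0.11, 0.012 and 0.067 there, and a list of 55 other mitotic genes at 0.22, 0.16, -0.049 and 0.00060. Coculture 3 and 4 were the 2 highest libraries for 6 mitotic genes (CDK1, BUB1, TTK, CENPE, CENPF and KIF11) and 3 G1/S genes (RRM1, CCNE2 and CLSPN), against 9.23% of all genes. Controls 3 and 4 were the 2 highest for 9 G1/S and 4 mitotic genes, against 6.23% of all genes. The kinetochore and checkpoint genes had the widest swing, from -0.55 in coculture 1 to 0.31 in coculture 3.

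**Figure D4:**
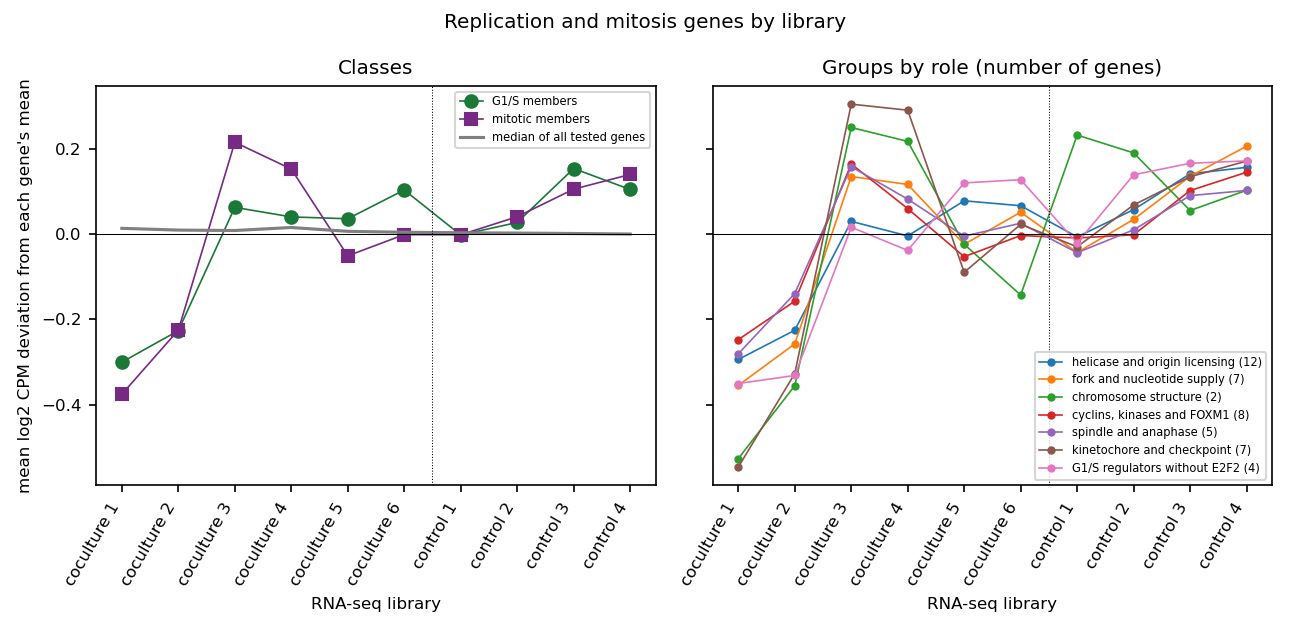
Mean deviation of log2 CPM from each gene's own mean (vertical axis) in the 10 RNA-seq libraries, for the 24 G1/S and 22 mitotic members with the median of all tested genes in grey (left), and for groups by role (right, G1/S regulators without E2F2). Both classes lie lowest in coculture 1 and 2, and the mitotic class is highest in coculture 3.

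By the variation that edgeR fitted, the median spread of the members was below that of all tested genes and close to that of genes in their range of counts. The biological coefficient of variation that edgeR fitted had a median of 13.3% over the members, against 18.7% over all tested genes and 13.9% over genes in the members' range of counts, and counting alone would give a median of 1.44% for the members. The SD of log2 CPM was larger among coculture than among control libraries for 34 of 46 members (73.9%) and for 68.5% of all tested genes. Its median over members was 0.22 in coculture and 0.11 in controls. Over genes in the members' range of counts this median was 0.19 in coculture and 0.13 in controls. By class, the SD was larger in coculture for 16 of 24 G1/S and 18 of 22 mitotic genes.

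The gap in coculture 1 and 2 was wider in longer transcripts. Its median was -0.19 in the 15 members of 887 to 2277 bases, -0.36 in the 15 of 2415 to 3471 bases and -0.51 in the 16 of 3507 to 12497 bases. Over all tested genes within the same bounds of length the medians were 0.086, 0.025 and -0.054. Across genes, Pearson's r between the gap and log2 length was -0.74 over the 22 mitotic members, -0.19 over the 24 G1/S members (-0.38 over 23 without E2F2, which had few counts) and -0.042 over all tested genes. The difference between the classes was not tested. Genes are not independent replicates, and all these points share the same 10 libraries. Some other libraries leaned with length too, since the median deviation of the longest minus the shortest of 20 length bins was 0.45 in control 1, 0.24 in control 2, -0.24 in control 4, -0.27 in coculture 2 and -0.061 in coculture 1. With a length offset in the fit, an alternative chosen after seeing the data, the medians of the log2 fold change were -0.12 (G1/S) and -0.10 (mitotic), with 0 members called. The average deviation of the members in coculture 1 and 2 was -0.34 and -0.23, and -0.35 and -0.24 after the same correction.

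**Figure D5:**
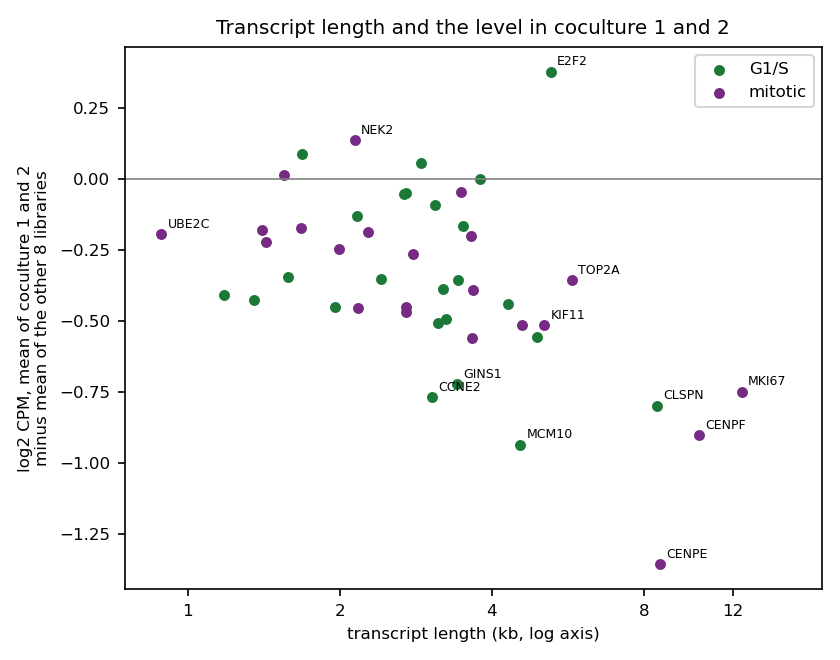
Transcript length in kb (horizontal, log axis) and the log2 CPM of coculture 1 and 2 minus that of the other 8 libraries (vertical) for the 46 members, G1/S in green and mitotic in purple. The longest mitotic transcripts, CENPE, CENPF and MKI67, lie at -1.36, -0.90 and -0.75, and UBE2C, the shortest at 887 bases, at -0.19.

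Leukocyte genes rose in coculture. Of 20 leukocyte markers 14 were tested and 12 called higher, and their summed level was 185 to 248 CPM in coculture and 148 to 171 in controls. LAPTM5, a lysosomal protein of blood cells that TPC-1 expressed at 142 CPM in controls, made up most of that sum. LCP1, a leukocyte actin-bundling protein, was at 15.7 CPM against 6.195, and LYZ, lysozyme, at 13.9 against 0.0860. Without LAPTM5 the sum was 53.0 to 80.3 CPM in coculture and 14.7 to 15.3 in controls. It was 79.7 and 53.0 in coculture 1 and 2 and 57.7 to 80.3 in coculture 3 to 6. FCGR3B and CXCR2, receptors of mature neutrophils, were at 0 in all libraries. S100A8, S100A9 and ITGAM, from the same list, were at 0.126 to 0.289, 0.316 to 1.86 and 0.526 to 1.71 CPM in coculture. In controls they were at 0, 0 to 0.0214 and 0 to 0.0247 CPM. CSF3R and S100A12 reached at most 0.137 and 0.0241 CPM in coculture and were at 0 in controls. Markers of granulocyte progenitors, the dividing precursors of neutrophils, summed to at most 0.101 CPM, with ELANE, PRTN3, CTSG and MS4A3 at 0 everywhere. The summed thyroid markers, nearly all PAX8, were at 781 and 759 CPM in coculture 1 and 2, 516 to 593 in coculture 3 to 6 and 507 to 533 in controls. FOXE1 did not share this rise, at 9.90 and 7.66 CPM, 6.32 to 11.8 and 8.94 to 11.1 in the same order. TG did, at 2.77 and 2.78 CPM, 0.977 to 1.97 and 0.271 to 1.24. The summed epithelial markers, mostly KRT18 and KRT8, were at 510.1 and 511 CPM in coculture 1 and 2, 614 to 687 in coculture 3 to 6 and 523 to 669.7 in controls. The scarcer KRT7 and KRT19 went the other way. KRT7 was at 11.0 and 9.15 CPM in coculture 1 and 2, 3.53 to 4.57 in coculture 3 to 6 and 2.98 to 5.24 in controls. KRT19 was at 1.15 and 1.47 CPM, 0.499 to 1.05 and 0.371 to 0.982. The part of these marker lists in the levels of the replication and mitosis genes was not tested.

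The other genes of the pathway were measured from lists that hold no member. Of 48 further replication genes 0 were called, with a median log2 fold change of -0.092, and coculture 1 and 2 were the 2 lowest libraries for 34 of them. Over all tested genes that order held for 22.3%. GINS4, a subunit of the same GINS complex, was at 54.0 ± 9.27 CPM in coculture and 66.5 ± 2.30 in controls (edgeR adjusted p = 0.436), and RPA1, which binds single-stranded DNA, at 208 ± 8.76 and 231 ± 5.99 (edgeR adjusted p = 0.453). Of 56 further mitotic genes 55 were matched and tested, 0 were called, and coculture 1 and 2 were lowest for 31. RACGAP1, which organises the central spindle, was at 145 ± 8.73 and 167 ± 5.95 CPM and LMNB1, lamin B1, at 59.5 ± 7.44 and 72.4 ± 3.94 (edgeR adjusted p = 0.325 for each). At an unadjusted p under 0.05 each of these lists had 2 genes lower and 0 higher by edgeR. By the same edgeR measure 3.58% of all tested genes were lower and 6.07% higher. DESeq2 gave 2 replication and 3 mitotic genes at that level and limma-voom 2 and 2, with 0 called by either. The shares of all genes at that level were 11.1% by DESeq2 and 9.46% by limma-voom.

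Among pocket proteins and E2F, DREAM and MYB factors, 0 of 18 were called by edgeR. MYBL1 (A-MYB) came nearest, at 20.5 to 27.3 CPM in coculture (median 23.0) and 32.6, 29.8, 32.8 and 31.5 in controls. Every coculture library lay below every control, with a log2 fold change of -0.41 ± 0.10 (edgeR adjusted p = 0.0881), and DESeq2 called it (adjusted p = 0.00514). Its log2 fold change without coculture 1 and 2 was -0.35 (edgeR adjusted p = 0.0745). E2F8, a repressive E2F, was at 11.1 ± 1.08 and 13.5 ± 1.66 CPM (edgeR adjusted p = 0.417). Coculture 1 and 2 were the lowest libraries for 12 of the 18, against 22.3% of all tested genes. At an unadjusted p under 0.05, edgeR, DESeq2 and limma-voom each gave 2 of the 18. DESeq2 gave 11.1% of all tested genes at that level and limma-voom 9.46%, and edgeR gave 3.58% lower and 6.07% higher.

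Of the 12 G1 cyclins, kinases and their inhibitors 10 were tested, and 0 were called by edgeR. CCND1, cyclin D1, was at 701 to 897 CPM in coculture (median 754) and at 889.9, 974, 979.8 and 917 in controls. Only coculture 5 reached the lowest control, and the log2 fold change was -0.29 ± 0.083 (edgeR adjusted p = 0.163; DESeq2 adjusted p = 0.0407). The fold change without coculture 1 and 2 was -0.27 (edgeR adjusted p = 0.119). CDKN2B, the inhibitor p15, was at 9.01 ± 2.02 CPM against 6.33 ± 1.75 (log2 fold change 0.51 ± 0.21; edgeR adjusted p = 0.447). At an unadjusted p under 0.05 edgeR gave 1 of the 10 higher and 2 lower, and DESeq2 and limma-voom 3 each. Among all tested genes edgeR gave 6.07% higher and 3.58% lower, DESeq2 11.1% and limma-voom 9.46%. Coculture 1 and 2 were lowest for 2 of the 10, where this was so for 22.3% of all tested genes.

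Replication-dependent histone genes package the new DNA. Of 16 listed, 12 passed the filter, 0 were called, and coculture 1 and 2 were lowest for 2, against 22.3% of all tested genes. HIST1H2AC was at 2.74 ± 0.877 CPM in coculture and 4.68 ± 0.968 in controls (edgeR adjusted p = 0.246), and HIST1H1E, a linker histone, at 0.372 ± 0.0720 and 0.541 ± 0.160 (edgeR adjusted p = 0.602). At an unadjusted p under 0.05 edgeR, DESeq2 and limma-voom each gave 1 gene. The shares of all tested genes were 3.58% lower and 6.07% higher by edgeR, 11.1% by DESeq2 and 9.46% by limma-voom. The levels are low, and their median biological coefficient of variation was 27.1%.

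MCM7 and the mitotic condensin gene SMC4 carry miRNAs inside them, which the second assay counted. Their mature sequences (RefSeq, GRCh38.p14) equal those in the deposited miRNA table, and are shown with the seed, bases 2 to 8, in capitals because they fall into families by it.
hsa-miR-106b-5p: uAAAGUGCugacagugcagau
hsa-miR-93-5p: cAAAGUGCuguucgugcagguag
hsa-miR-25-3p: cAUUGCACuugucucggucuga
hsa-miR-15b-5p: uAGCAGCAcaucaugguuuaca
hsa-miR-16-5p: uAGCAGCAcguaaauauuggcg
The first 3 lie within MCM7 on its own strand, at chr7:100094043-100094063, chr7:100093815-100093837 and chr7:100093571-100093592 (minus). hsa-miR-15b-5p lies within SMC4 at chr3:160404607-160404628 (plus). hsa-miR-16-5p comes from MIR16-2 there, at chr3:160404754-160404775 (plus), and also from MIR16-1 at chr13:50049027-50049048 (minus), and its counts cannot be assigned to one locus.

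None of the 10 mature miRNAs of these loci differed at an adjusted p under 0.05 (edgeR), where 1.25% of 797 tested miRNAs were called. hsa-miR-93-5p was at 1447 to 1834 CPM in coculture (median 1679) and 1779, 1567, 1331 and 1546 in controls (log2 fold change 0.12 ± 0.11; edgeR adjusted p = 0.686). hsa-miR-25-3p was at 1598 to 1868 CPM (median 1779) and 1934, 1658, 1473 and 1921 (0.022 ± 0.11; edgeR adjusted p = 0.944). For both, the controls spanned more than the coculture libraries. hsa-miR-106b-5p was at 188 to 225 CPM in coculture (median 217) and 223, 218, 215 and 347 in controls (-0.24 ± 0.15; edgeR adjusted p = 0.554). Their partner strands, hsa-miR-106b-3p, hsa-miR-93-3p and hsa-miR-25-5p, had means of 553 ± 29.0, 22.3 ± 2.77 and 65.4 ± 11.98 CPM in coculture and 585 ± 52.8, 23.9 ± 3.20 and 66.3 ± 14.3 in controls.

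SMC4, a gene outside the 46, is given because it hosts these miRNAs. It was at 93.7 and 110.0 CPM in coculture 1 and 2, 355 and 357 in coculture 3 and 4, 217 and 246 in coculture 5 and 6, and 208, 223, 246 and 269.8 in controls (log2 fold change -0.044 ± 0.33; edgeR adjusted p = 0.976). hsa-miR-15b-5p was at 599.9 and 501 CPM in the miRNA-seq coculture libraries 1 and 2, 447 and 449 in 3 and 4, and 650.4 and 457 in 5 and 6. In controls it was at 607, 510.5, 243 and 505 (0.15 ± 0.22; edgeR adjusted p = 0.795). hsa-miR-16-5p had equal means in both groups, 1514 ± 171 and 1514 ± 410.4 CPM, with its lowest value, 937, in control 3. hsa-miR-15b-3p and hsa-miR-16-2-3p were at 378 ± 59.9 and 542 ± 110.7 CPM in coculture and 314 ± 104 and 464 ± 176 in controls (edgeR adjusted p = 0.601 and 0.718). The labels do not say that an RNA-seq and a miRNA-seq library of one number came from the same cells.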

How the data were processed

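The authors deposited raw read counts in whole numbers, by gene symbol in one table and by mature miRNA in the other. HISAT2 2.0.4, BWA and GRCh38.p10 are named, per the submitters' processing notes. How reads were counted, whether strand was used, and which annotation and miRNA release applied is not given in the sources used here, so reads of overlapping genes and near-identical copies cannot be told apart. Gene positions and transcript lengths are those of the deposited table, and 0 value columns were left unused.

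The tests used edgeR 4.0.16 in R 4.3.3 (TMM, filterByExpr by group, robust glmQLFit and glmQLFTest, coculture minus control, each assay alone), with Benjamini-Hochberg adjustment over all tested features at 0.05. For a log2 fold change, the SE was the absolute value over the square root of its F statistic, and intervals are at 95%. CPM uses TMM library sizes, log2 CPM a prior count of 2, and values are mean ± SD. Level per kb is the mean CPM over the transcript length. Alternatives were RLE, upper quartile and library total scaling, no filter, a prior count of 0.5 for the spread, DESeq2 1.42.0, limma-voom (limma 3.58.1), a replicate block, each library left out, and, added after seeing the data, coculture 1 and 2 left out and a length offset in 20 bins.

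The members and lists were chosen with earlier results of these data known. Named with full values were, per class, the 4 smallest p, the 2 highest levels per kb, the 2 largest SDs and 6 set names, and per other list the 2 smallest p. Values of single libraries for other members, and for SMC4, were chosen for print after they were seen. Scripts were tested on simulated data. The closest pair of libraries in a group differed by a chi-square of 6.86 per degree of freedom, so no library was counted as a repeat.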

Additional observations from a re-analysis of the deposited data

Results flagged for a closer look

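In a check of single libraries that stand far from the rest of their group, 2 of 116 groups passed Dixon's 95% limit. A group was a listed gene or miRNA in coculture or in control, and chance gives about 1 in 20. The check looks for a single far library, so it can miss coculture 1 and 2 where both were low. CDC45, a cofactor of the replicative helicase, was at 48.3 CPM in coculture 1, while the other 5 coculture libraries ran from 54.3 to 57.3. hsa-miR-106b-5p was at 347 CPM in control 4, while the other 3 controls ran from 215 to 223.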

How the results depend on the processing

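No member was called under any of the 20 alternatives. Of 920 refits of members 832 kept the sign of the log2 fold change and 88, in 25 members, did not, all of them uncalled. With 1 library left out, the G1/S members median log2 fold change ran from -0.137 to -0.0507, and the mitotic members median log2 fold change from -0.136 to -0.0443. With the replicate block they were -0.178 and -0.104, and 8 of 24 G1/S and 1 of 22 mitotic genes had an unadjusted p under 0.05, where 13.1% of all genes did. The 207 genes called became 439 by DESeq2 (333 higher, 106 lower), 110 with the replicate block (100 higher, 10 lower), 322 without coculture 1 and 2, 369 with the length offset as well, and 116 to 227 with 1 library left out (119 without control 3, 116 without control 4). The 10 miRNAs called became 6 with library totals, 16 by DESeq2, 16 with no filter and 5 to 12 with 1 library left out. The cause of these shifts was not tested. CCND1 and MYBL1 were called by DESeq2 alone. Same-numbered RNA-seq libraries of the groups had correlations of 0.350, -0.0825, 0.201 and 0.137, and 2 of the 4 numbers correlated best with themselves. Since 1 of the 4 pairs was below 0.1, the numbers were not taken to pair the samples.

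Sign changes are given as log2 fold changes. Without coculture 1 and 2, and then with the length offset as well, values were 0.0477 and 0.0458 for CDC6, 0.0774 and 0.0794 for RRM1, 0.0860 and 0.0806 for POLE2, 0.125 and 0.123 for CCNE2, 0.104 and 0.138 for CLSPN, 0.0378 and 0.121 for MKI67, 0.0678 and 0.0580 for CDK1, 0.0271 and 0.0302 for CCNB1, 0.00304 and 0.00805 for AURKA, 0.0584 and 0.0649 for BUB1, 0.0268 and 0.0323 for BIRC5, 0.0505 and 0.0450 for CENPA, 0.0199 and 0.0661 for CENPE, 0.00477 and 0.0706 for CENPF, and 0.0133 and 0.0193 for TPX2. GINS2 was at 0.000254 without coculture 1 and 2, and UBE2C at -0.0574 with the length offset alone. With upper quartile scaling MCM5 was at 0.00875, TK1 at 0.00771, CCNB2 at 0.00151, BUB1 at 0.00489 and hsa-miR-16-5p at 0.0162. With the replicate block CDK1 was at 0.0253, CCNB2 at 0.0146, KIF11 at -0.0241, UBE2C at -0.0138, NEK2 at 0.0536 and hsa-miR-16-5p at 0.0483. By limma-voom TK1 was at 0.000126, KIF11 at -0.00601 and hsa-miR-16-5p at 0.0398. With no filter UBE2C was at -0.00153, hsa-miR-25-5p at 0.0219 and hsa-miR-16-5p at 0.0320. For hsa-miR-25-5p and hsa-miR-16-5p DESeq2 gave 0.0306 and 0.0509 and RLE scaling 0.0303 and 0.0509, and library totals gave -0.0354 for hsa-miR-25-3p.

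With 1 library left out, values ran from -0.0406 to 0.0394 for BUB1, -0.0358 to 0.0141 for CCNB2, -0.158 to 0.0172 for CCNE2, -0.0719 to 0.0333 for CDK1, -0.115 to 0.0385 for CDT1, -0.0795 to 0.0403 for CENPA, -0.0522 to 0.113 for KIF11, -0.0333 to 0.0494 for MCM5, -0.0910 to 0.000244 for MCM7, -0.0697 to 0.0193 for NEK2, -0.0789 to 0.0347 for POLE2, -0.124 to 0.00728 for RRM1, -0.0591 to 0.0487 for TK1, -0.0469 to 0.178 for TTK and -0.0694 to 0.0657 for UBE2C. For miRNAs they ran from -0.104 to 0.0203 for hsa-miR-106b-3p, -0.0483 to 0.299 for hsa-miR-15b-5p, -0.160 to 0.162 for hsa-miR-16-5p, -0.0364 to 0.112 for hsa-miR-25-3p, -0.164 to 0.0819 for hsa-miR-25-5p and -0.169 to 0.0208 for hsa-miR-93-3p. A floor of 3 counts was 0.0622 to 0.0746 CPM in RNA-seq, which limits E2F2 alone among the members, and 0.509 to 0.755 CPM in miRNA-seq.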
